A study of Rattus norvegicus with 12 samples.

Results

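Gene expression without added TGFB1, the state called rest below whether or not the cells divided, was described in 3 RNA sequencing libraries of the rat kidney fibroblast line NRK-49F, out of 12 libraries in the series. The 3 members were chosen by their titles (Control replicates 1 to 3). These cells carried the empty plasmid pcDNA3.1 and received vehicle only, which was medium with 0.5% serum for 24 hours, and poly(A) RNA was sequenced. The design text describes every cell as TGFB1-treated, whereas the sample labels give vehicle for these 3, and the labels were followed. The other libraries of the series carried a human HDAC1 plasmid, received the cytokine TGFB1, or both, and were not compared here. NRK-49F is 1 cell line grown in culture, no sorting of transfected cells is mentioned in the labels, and the labels do not say whether the replicates were separate cultures, so the spread given below is that between libraries.

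Fibroblasts make and maintain the connective tissue between the tubules of the kidney. They secrete collagens and adhesive glycoproteins, bind this matrix through integrins, and read growth factors, cytokines and matrix stiffness. In kidney scarring they can turn into contractile myofibroblasts that lay down more matrix, and TGF-beta is the best known signal for that change.

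Replicates 1, 2 and 3 held 22749980, 18397093 and 27119357 counts over 43360 genes. Levels are CPM, the counts of a gene per 1000000 counts of its library. They are not divided by transcript length, so a CPM is a share of the sequenced fragments, and orders by CPM are orders of that share and not of transcript number. A gene was called expressed at 1 CPM or more in each library, which was at least 18.4 counts, and below detection under 0.1 CPM in each, with low used for all between. By this rule 12009 genes (27.7%) were expressed, 7663 were low and 23688 were below detection, 18660 of them with 0 counts in all 3 libraries. A count of 0 allows up to 3 counts, or 0.132, 0.163 and 0.111 CPM in replicates 1, 2 and 3. Such limits cover counting error only.

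Gene names came from the authors' deposited table of normalized values, which holds 14275 genes with at least 100 counts over the whole series, 12736 of them with a symbol. A gene outside that table reached at most 0.802 CPM on average here. A listed marker with no row under its name was therefore either below that level or present without a symbol or under another name, and 778 expressed genes had no symbol. Such a marker is called "not named" below and is not counted as absent. Of the genes with a symbol, 88.2% were expressed and 18.7% had a mean of at least 100 CPM, with a median of 30.2 CPM. Counts in each list at these levels are to be read against that background.

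Replicate 1 stood apart in transcripts of heart and nerve tissue. All 20 heart muscle markers were named, and 17 had a mean of at least 1 CPM. In all 17, replicate 1 was more than 2-fold below both others, against 1.56% of all 12472 genes at that level. The mean includes replicates 2 and 3, so genes low in replicate 1 could pass through those libraries. Tcap and Myl3, at 0.703 and 0.615 CPM in replicate 1, did so. The lists were chosen with earlier results known, so the count is a description and no independent support. The sum over all 20 heart muscle markers was 69.4 CPM in replicate 1, 399 CPM in replicate 2 and 426 CPM in replicate 3. Myh6, the alpha heavy chain of heart myosin, stood at 17.0, 89.1 and 95.7 CPM, and Tnnt2, the heart troponin T, at 9.98, 57.6 and 68.8 CPM. Myl2, a ventricular myosin light chain, stood at 7.74, 56.1 and 55.4 CPM. Of 10 neuron and glia markers at this level, 9 were low in replicate 1 in the same way. Of these, Snap25, Tubb3, Stmn2, Nefl and Gad1 were under 1 CPM there and passed the mean through replicates 2 and 3. Slc17a7, a vesicular glutamate transporter, stood at 2.02, 13.6 and 10.7 CPM, and Snap25, a protein of synaptic vesicle fusion, at 0.967, 10.16 and 12.02 CPM. The exception was Map2, a microtubule-associated protein, at 74.0, 84.6 and 75.9 CPM. Bulk RNA does not show which cells, if any in this culture, held these transcripts, and their source was not tested.

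**Figure D1:**
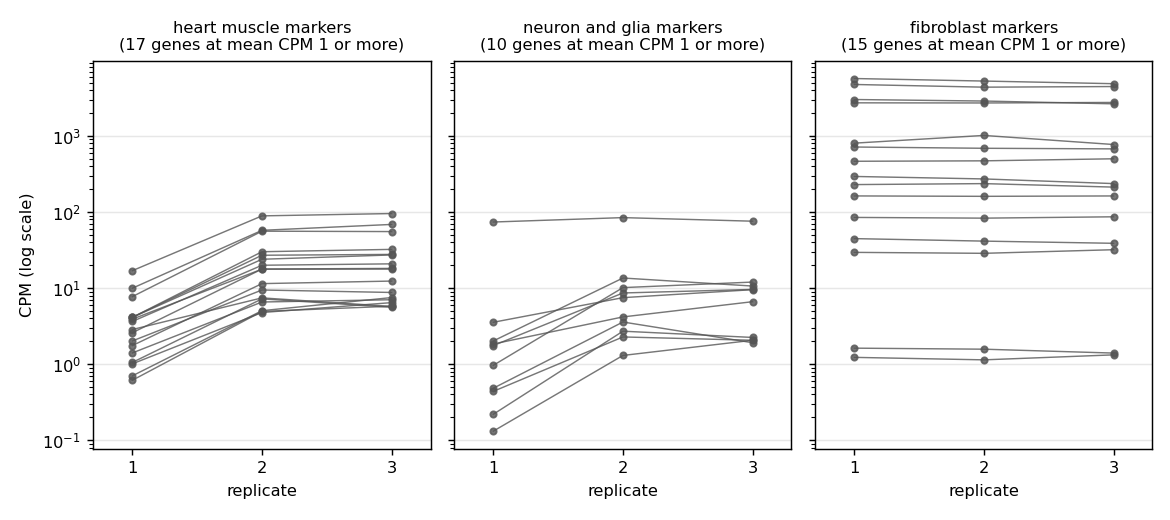
CPM on a log axis in the 3 libraries for heart muscle, neuron and glia, and fibroblast markers with a mean of at least 1 CPM; each line joins the values of 1 gene. All 17 heart genes and 9 of 10 neuron and glia genes are lowest in replicate 1 by more than 2-fold, whereas no fibroblast gene is. Genes low in replicate 1 could reach this mean through replicates 2 and 3.

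Beyond these genes the libraries were close. Among 9464 genes with a mean of at least 10 CPM the median coefficient of variation was 5.49%, 84.2% of genes had one under 10%, and 12 had one over 50%. The same number, 12, had 1 library more than 2-fold from both others, and in each of these genes it was replicate 1 that was low (0.127% of the genes). They were 9 heart muscle markers (Myh6, Tnnt2, Myl2, Myh7, Tnni3, Actc1, Mb, Tnnc1 and Mybpc3) together with 3 others, among them Eef1a2 and Nrgn, which are known from muscle and nerve. At a mean of at least 1 CPM, 195 of 12472 genes were low in replicate 1 and 0 were high there, against 17 low and 11 high in replicate 2 and 1 low and 2 high in replicate 3. The common biological coefficient of variation estimated with edgeR was 7.29%. It was 7.98%, 5.39% and 8.16% without replicates 1, 2 and 3, so the small shifts over many genes were smallest between replicates 1 and 3. The median absolute log2 difference was 0.06 between replicates 1 and 3, 0.10 between 1 and 2 and 0.11 between 2 and 3. Members of the lists below that have a mean of at least 1 CPM and were more than 2-fold low in replicate 1 are named where they occur.

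The sequenced RNA was spread over many genes. The 10 genes with the most counts took 4.38 ± 0.109% of all counts (SD, n = 3), the top 100 took 17.4 ± 0.179% and the top 1000 took 50.02 ± 0.198%. There were 83 genes at 1000 CPM or more and 2337 between 100 and 1000 CPM. Protein-coding genes held 99.0 ± 0.0544% of counts, and 598 expressed long noncoding RNA genes were part of a class holding 0.692 ± 0.0360%. The 13 protein genes of the mitochondrial genome were all expressed and summed to 17817, 18656 and 17675 CPM. Mt-co1, a core subunit of cytochrome c oxidase, had the largest count share of any gene, at 9325, 9548 and 9341 CPM.

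Matrix and interferon genes filled much of the top 25. Col1a1, which encodes the alpha 1 chain of collagen I, was the second gene by counts, at 5698, 5276 and 4871 CPM. Fn1, which encodes fibronectin, stood at 4759, 4385 and 4469 CPM, and Spp1, the adhesive phosphoprotein osteopontin, at 4074, 4511 and 3856 CPM. Replicates 1 and 3 held the extremes for Col1a1, and replicate 2 was the highest for Spp1, with ranges small beside the levels. Col1a2, Thbs1 (thrombospondin, a matricellular protein) and Bgn (the proteoglycan biglycan) were also in this set, at 2849 ± 187, 2824 ± 93.6 and 2243 ± 141 CPM. The interferon-induced genes Mx2, Irf7, B2m and Lgals3bp stood beside them at 3070 ± 72.7, 2880 ± 45.9, 2619 ± 109 and 2590 ± 52.4 CPM. B2m was also a member of the housekeeping list. The cytoskeletal genes were Actg1 (3634 ± 141 CPM), Vim (2737 ± 22.6), Myh9 (2152 ± 49.7) and the scaffold gene Ahnak (2644 ± 103). Housekeeping functions gave Eef1a1 and Eef2 (translation elongation), Hsp90ab1 and Hspa8 (chaperones) and Fth1 (iron storage), between 1988 and 4711 CPM. Lrp1, an endocytic receptor, Lgals1, a galectin, and Grn, a lysosomal growth factor precursor, completed the set with Mt-co3 and a gene listed as Potef. Potef stood at 3292 ± 67.7 CPM; the name is that of an actin-related gene of primates, Actb was not named, and which rat gene this row counts was not settled.

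**Figure D2:**
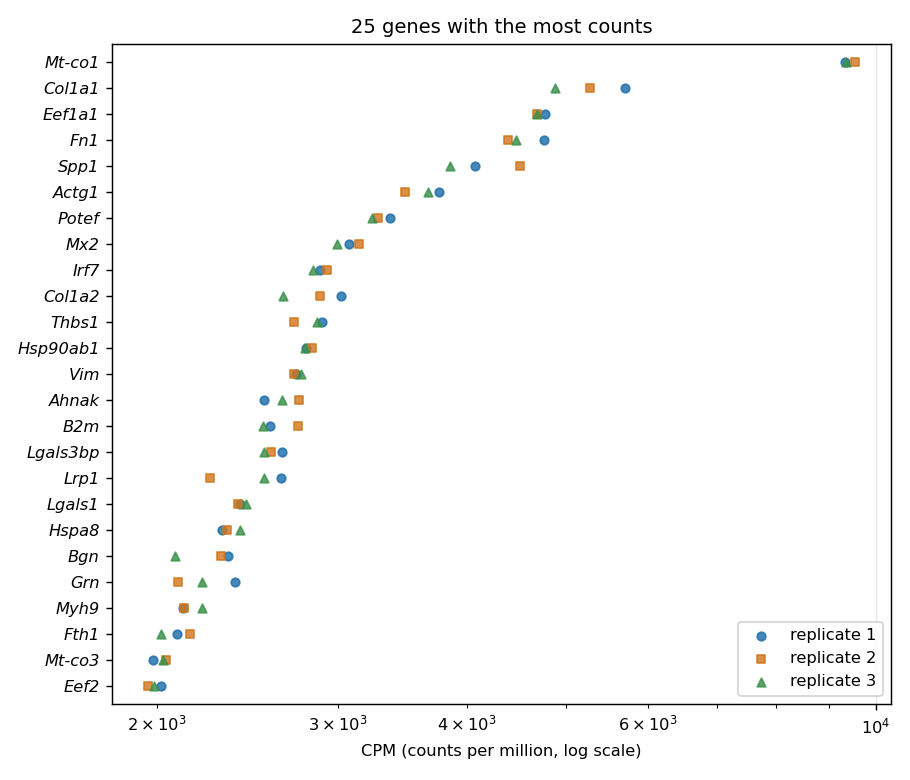
CPM on a log axis in each of the 3 libraries for the 25 genes with the highest mean CPM. Mt-co1 lies between 9325 and 9548 CPM, the others lie between about 1959 and 5698 CPM, and the 3 libraries of a gene lie close together.

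The cell type label was checked against marker lists. Vim, the intermediate filament of mesenchymal cells, was at 2730, 2718 and 2762 CPM. Of 18 fibroblast markers 16 were named, 15 were expressed and 10 reached 100 CPM, against 18.7% of all genes with a symbol at that level. S100a4, a calcium-binding protein used as a fibroblast marker, stood at 805, 1017 and 773 CPM, and Pdgfra, the receptor that marks stromal fibroblasts, at 230, 237 and 213 CPM. Pdgfrb, its partner in mesenchymal cells, was at 41.7 ± 2.97 CPM. The collagen chaperone Serpinh1, the hyaluronan receptor Cd44, the fibrillar collagen Col3a1 and the collagen receptor Ddr2 stood at 695, 480, 268 and 162 CPM on average.

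Some genes common in fibroblasts were near the limit. Dcn, the small proteoglycan decorin, was at 0.703, 0.870 and 0.737 CPM, Nt5e at 1.53 ± 0.118 CPM and the microfibril gene Mfap5 at 1.23 ± 0.0930 CPM. Thy1 and Lum were not named. Conversely Krt8, a keratin of simple epithelia, stood at 1208, 1173 and 1284 CPM, within the 83 genes over 1000 CPM. Of the other general epithelial markers, Krt14 (15.1 ± 2.13 CPM), Krt19 (3.59 ± 0.248) and Esrp2 (1.36) were expressed, while Cldn4, Krt5 and Krt7 were low, at 0.301, 0.0994 and 0.0744 CPM. The defining epithelial adhesion genes Cdh1, Epcam and Ocln, and Krt18, the usual partner of Krt8, were not named. The mesenchymal cadherins Cdh2 and Cdh11 were expressed at 85.3 ± 4.03 and 76.4 ± 8.15 CPM, beside Cdh13 (167 CPM) and Cdh3, the P-cadherin (165 ± 4.55 CPM).

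Markers of other kidney cells were often not named, and those are not counted as absent. The counts of expressed genes below stand against 88.2% of all genes with a symbol. Of 20 tubule markers 6 were named and 3 were expressed: Aqp1, a water channel, at 36.0, 30.5 and 36.5 CPM, Cubn at 1.67 CPM and Aqp3 at 1.45 CPM. Lrp2, Umod, Slc12a1, Slc12a3 and Aqp2 were not named. Of 12 endothelial markers 8 were named and Egfl7 (17.9 ± 2.21 CPM), Erg (3.58) and Vwf (1.71) were expressed, with Cdh5, Tie1 and Kdr low, at 0.958, 0.541 and 0.517 CPM; Pecam1 was not named. The podocyte list had 1 named gene, Nphs1, which had 0 counts in all 3 libraries. Of 16 leukocyte markers 4 were named. Cd14, a coreceptor for bacterial lipopolysaccharide, stood at 142, 146 and 147 CPM and the lysosomal Cd68 at 9.46 CPM, whereas Csf1r and Spi1 were low, at 0.747 and 0.284 CPM, and Ptprc was not named. Of 5 named pericyte and mesangial markers Gata3, Anpep, Cspg4 and Notch3 were expressed, between 3.81 and 9.19 CPM. Liver transcripts were at or near 0: Fga had 0 counts, Alb, Ttr and Fgb had 0.0509, 0.0328 and 0.0181 CPM, and Serpina1 had 1.74 CPM.

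**Figure D3:**
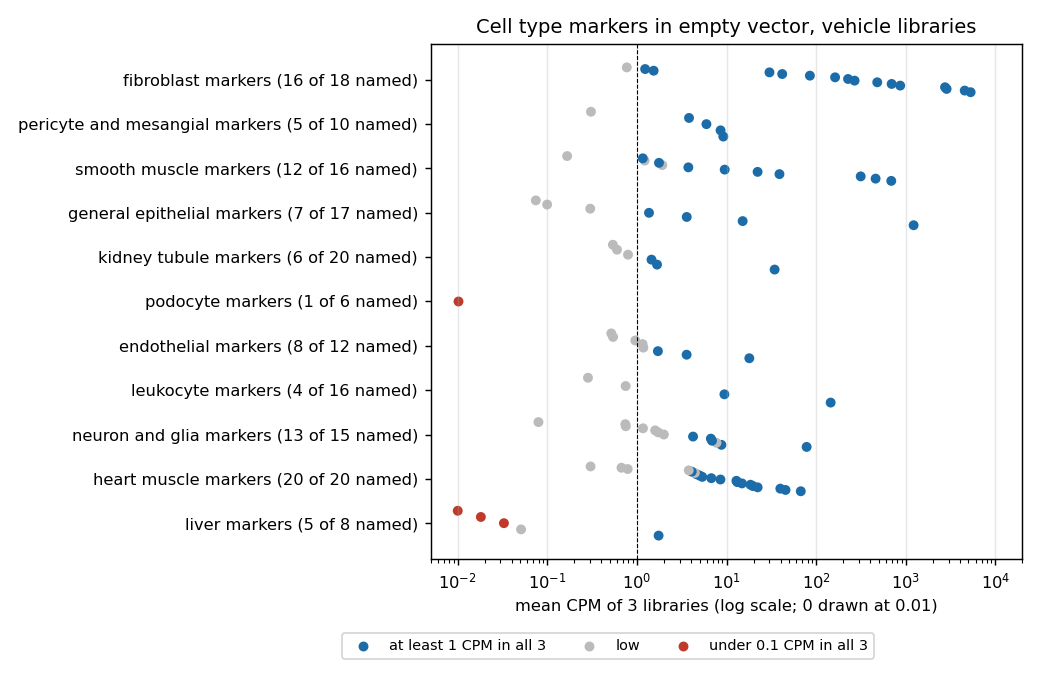
Mean CPM of the 3 libraries on a log axis for every named gene of 11 cell type lists; blue genes reach 1 CPM in each library, the dashed line is 1 CPM, and a mean of 0 is drawn at 0.01. Fibroblast genes extend past 1000 CPM, Krt8 (1221 CPM) is the far point of the epithelial list, and most named endothelial, tubule and liver genes lie near or under 1 CPM.

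Genes of the smooth muscle list had CPM values that spanned a wide range. Acta2, the smooth muscle actin that marks myofibroblasts, stood at 3.43, 4.19 and 3.61 CPM, and Tagln, an actin-binding protein of smooth muscle, at 1.23, 1.03 and 1.22 CPM. Myh11, the smooth muscle myosin heavy chain, was at 22.2 ± 2.06 CPM, and Smtn, the actin-binding smoothelin, at 38.9 CPM on average. Tpm2, Cald1 and Tpm1, which bind actin filaments in many cell types, stood at 687, 460 and 314 CPM. Of the 12 named genes 9 were expressed, a smaller share than the 88.2% of all genes with a symbol. At a threshold of 5 CPM in each library 5 were. Des and Ldb3, which are also muscle genes, were more than 2-fold lower in replicate 1 than in both others. Des stood at 4.97, 10.7 and 12.9 CPM. Cnn1, Myocd and Myl9 were not named.

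The matrix genes with the largest count shares were Col1a1, Fn1, Spp1, Col1a2 and Thbs1, given above. Of 11 fibrillar collagen genes 10 were named and 7 expressed, a smaller share than the 88.2% of all genes with a symbol. The list summed to 9879, 9283 and 8566 CPM. Col5a2 and Col5a1, chains that set the width of collagen fibrils, stood at 450 and 372 CPM, and Col11a1, Col11a2 and Col24a1 were low. Among other collagens, Col8a1, a short network collagen, stood at 939, 979 and 837 CPM, with Col16a1 at 253 and the fibril-associated Col12a1 at 249 CPM. Of type VI collagen, whose filaments are assembled from 3 chains, Col6a2 and Col6a1 stood at 175 and 129 CPM and Col6a3 at 1.54, 1.47 and 1.62 CPM in replicates 1, 2 and 3.

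Of 20 named basement membrane genes 18 were expressed, a share near that of all genes with a symbol (88.2%), and 9 reached 100 CPM. The laminin chains Lamc1, Lama5 and Lamb1 stood at 789 ± 12.3, 493 ± 52.7 and 381 CPM, and Hspg2, the heparan sulphate proteoglycan perlecan, at 557 ± 36.6 CPM. Col4a1 and Col4a2, the common chains of type IV collagen, were at 281 and 240 CPM, while Col4a3 was low (0.618 CPM). Lama2 was low as well, at 0.472 CPM.

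Of 35 matrix glycoproteins 31 were named, 28 were expressed, a share near the background, and 19 reached 100 CPM, against 18.7% of all genes with a symbol. Besides Fn1, Spp1 and Thbs1 the leading genes were Sparc, a collagen-binding matricellular protein (1083 ± 92.0 CPM), Vcan, a large proteoglycan (699 CPM), Mfge8 (626), the fibrillin gene Fbn1 (599) and the latent TGF-beta binding protein genes Ltbp3 (420) and Ltbp2 (306). Eln, which encodes elastin, was low and more than 2-fold lower in replicate 1, at 0.659, 1.58 and 1.40 CPM. Of the small leucine-rich proteoglycans, Bgn and Aspn (76.3 CPM) were expressed along with Ogn (4.13) and Omd (1.39), and Fmod was low (0.137 CPM).

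All 27 named collagen processing genes were expressed and 21 reached 100 CPM, again against 18.7%. They included P4hb, a subunit of prolyl hydroxylase and a disulfide isomerase, at 1849, 1851 and 1752 CPM, the chaperones Serpinh1 and Fkbp10 (419 CPM), Pcolce, an enhancer of procollagen cleavage (384 CPM), the lysyl hydroxylase Plod1 (322 CPM) and the crosslinking enzymes Loxl3, Loxl1 and Loxl2 (300, 275 and 250 CPM).

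Of 25 named matrix proteases 22 were expressed, a share near that of all genes with a symbol (88.2%). The lysosomal cathepsins Ctsb and Ctsl stood at 1283 ± 57.7 and 1165 ± 49.6 CPM, the gelatinase Mmp2 at 273 ± 12.6 CPM, its membrane-bound activator Mmp14 at 233 CPM and the stromelysin Mmp3 at 155 CPM. All 10 rows of the protease inhibitors were expressed, with Serpine2 at 1193 ± 28.5 CPM and Timp1 at 123 CPM. Timp2 was listed under 2 identifiers, at 959 and 11.1 CPM, so its level is uncertain. Integrins, the receptors for this matrix, were led by the common chain Itgb1, at 1307, 1317 and 1292 CPM. Its partners Itga3 (laminin binding), Itgav and Itga5 (fibronectin binding) stood at 715, 480 and 290 CPM, and Itgb5, a partner of Itgav, at 478 CPM. Of 19 named integrin genes 18 were expressed, against that 88.2%, and the leukocyte chains Itgal, Itgam and Itgb2 were not named.

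Interferon-stimulated genes were expressed throughout in these plasmid-carrying cells without added TGFB1. These genes are switched on when interferon binds its receptor and a complex that includes STAT2 and IRF9 enters the nucleus, and they restrict viruses and present antigen. All 51 named genes were expressed, 47 reached 100 CPM and the median was 287 CPM, against 88.2%, 18.7% and 30.2 CPM over all genes with a symbol. The list summed to 31756, 32375 and 31214 CPM, which was 3.18% of all counts on average. That sum includes B2m, which was also listed as a housekeeping gene. The median coefficient of variation of the genes was 3.85%, and no gene was more than 2-fold apart in any library. Levels in cells without a plasmid were not measured, and an effect of transfection was not tested. The same limit holds for the chemokines and cytokines below. 

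The promoters of these genes were examined for the element that the class is known for. RefSeq sequences of the assembly GRCr8 were searched for GAAANNGAAA, the core letters of the interferon-stimulated response element, on both strands in the 250 bases before the gene start. The motif was present for 25 of 40 listed genes that had a promoter sequence (62.5%). It was present in 3.41% of all 33469 promoters and in 2.73% of 9080 promoters of other genes expressed here. The members were listed as known interferon-stimulated genes, so a higher share was likely beforehand. It describes the list and is no evidence on expression in these cells. The match nearest the gene start is in capitals below, read 5′ to 3′ on the strand of the gene, so that TTTCNNTTTC is the same motif on the other strand. Shown are the matches of the 10 genes with a mean of at least 500 CPM, with up to 20 bases on each side.
Irf7: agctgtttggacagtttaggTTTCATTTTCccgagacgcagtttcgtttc
B2m: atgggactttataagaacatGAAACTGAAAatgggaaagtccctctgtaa
Lgals3bp: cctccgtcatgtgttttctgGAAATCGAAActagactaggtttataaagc
Cxcl10: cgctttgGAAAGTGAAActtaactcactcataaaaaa
Parp14: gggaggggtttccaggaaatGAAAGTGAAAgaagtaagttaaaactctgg
Rsad2: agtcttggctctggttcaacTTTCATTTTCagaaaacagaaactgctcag
Ifitm3: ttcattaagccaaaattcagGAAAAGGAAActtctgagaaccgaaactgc
Gbp2: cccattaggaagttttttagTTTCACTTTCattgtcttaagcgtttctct
Ifi27: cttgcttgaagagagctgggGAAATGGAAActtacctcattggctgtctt
Oasl2: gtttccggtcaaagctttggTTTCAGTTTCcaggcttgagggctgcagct

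These stretches lie in GRCr8 at chr1:205800063-205800112 (minus strand, Irf7), chr3:129549160-129549209 (plus, B2m), chr10:104127869-104127918 (minus, Lgals3bp), chr14:15988816-15988852 (plus, Cxcl10) and chr11:78408038-78408087 (plus, Parp14). The others lie at chr6:48788238-48788287 (minus, Rsad2), chr1:205541773-205541822 (minus, Ifitm3), chr2:234005676-234005725 (plus, Gbp2), chr6:128355208-128355257 (plus, Ifi27) and chr12:47383307-47383356 (minus, Oasl2). All are upstream of the annotated start of the gene. The matches in the list began between 10 and 151 bases before the start, with a median of 56, and that of Cxcl10, from the chemokine list, 243 bases before it. A match is a run of letters and not a measured binding site. No match was found within this window for Mx1, Oasl, Stat2 or Rnf213, which says only that these letters were not there.

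Within the list, regulators and effectors can be given separately. Irf7, the transcription factor that drives type I interferon genes, stood at 2883, 2924 and 2832 CPM. Stat2 and Irf9, parts of the signalling complex, stood at 513 ± 13.4 and 120 ± 4.14 CPM. The antiviral GTPases Mx2 and Mx1 stood at 3075, 3140 and 2995 CPM and at 1727, 1808 and 1647 CPM. Isg15, a ubiquitin-like modifier, stood at 1074, 1167 and 1120 CPM, and Rsad2, the antiviral enzyme viperin, at 1091, 1144 and 1080 CPM. Parp14, an ADP-ribosyltransferase, Ifitm3, a membrane restriction factor, and Rnf213, an E3 ubiquitin ligase, stood at 1213 ± 32.6, 1038 ± 17.6 and 1831 CPM. In each of these the 3 libraries were close.

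The ligand and the receptors were also measured. Ifnb1, which encodes interferon beta, was at 5.63, 6.36 and 5.46 CPM, and the receptor chains Ifnar1 and Ifnar2 were at 109 ± 6.48 and 35.7 ± 1.74 CPM. The lowest members of the list were Zbp1, a sensor of nucleic acids (35.5 ± 0.966 CPM), and Samhd1, a nucleotide hydrolase (45.9 ± 0.565 CPM). Ifng and Oas3 were not named.

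**Figure D4:**
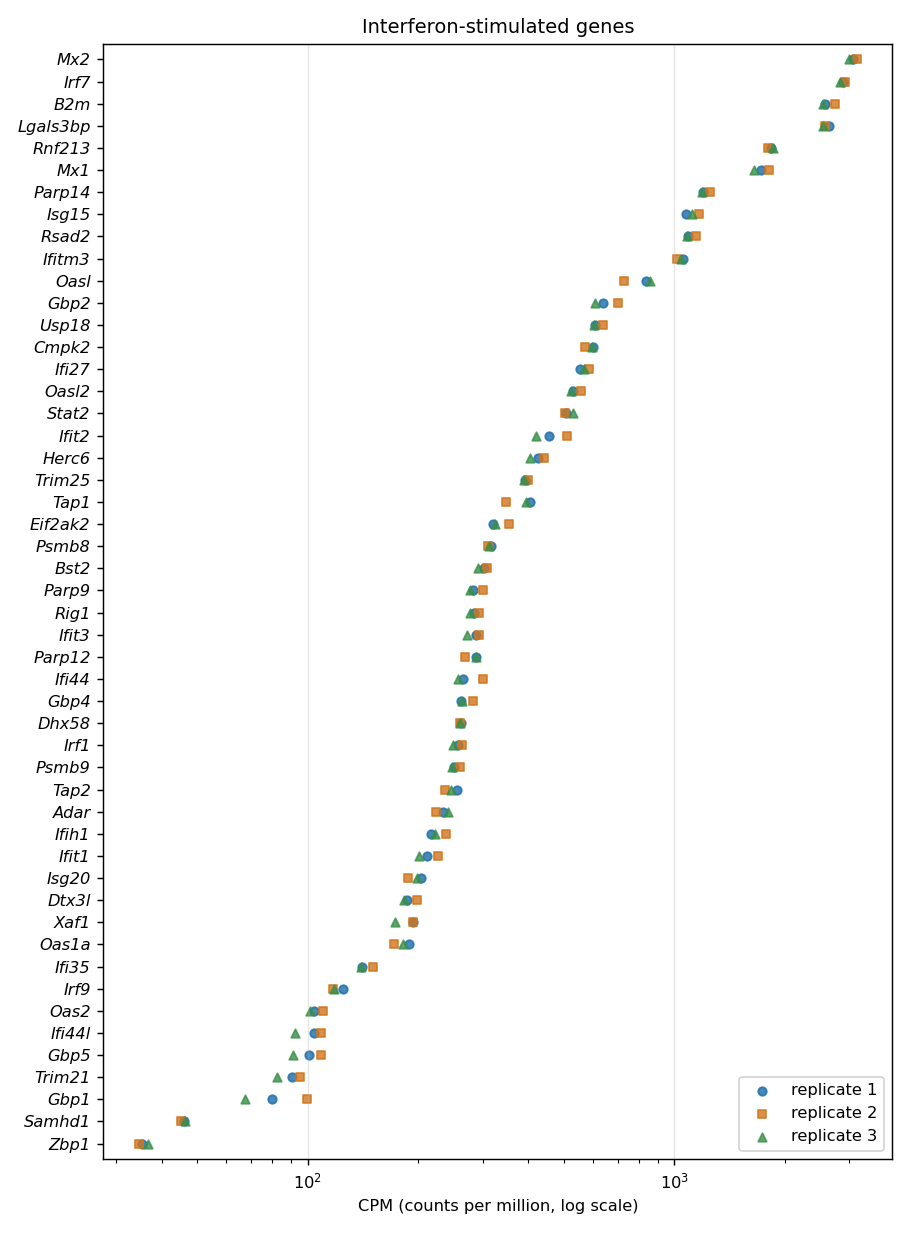
CPM on a log axis in each of the 3 libraries for 50 of the 51 named interferon-stimulated genes, ordered by mean. All of those drawn lie between about 34.7 and 3140 CPM, most have a mean of 100 CPM or more, and the 3 libraries nearly coincide for most genes.

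Chemokines and cytokines were next described. Of 32 chemokine genes 17 were named and 14 expressed, against 88.2% of all genes with a symbol. Cxcl10, an interferon-induced attractant of T cells, stood at 1569, 1759 and 1504 CPM, and Ccl2, the main attractant of monocytes, at 883, 955 and 920 CPM. Ccl7 (258 ± 21.5 CPM), Cxcl16 (196 ± 0.429), Cxcl12 (97.4 ± 20.2), Cxcl11 (72.7 ± 4.07) and Cxcl1 (51.8) followed, whereas Cxcl9 and Cxcl14 were low, at 0.872 and 0.375 CPM. Of 40 interleukins and cytokines 20 were named and 17 expressed, a share near that 88.2%. Apart from Spp1, which is also a cytokine, they were Mif (118 CPM), Clcf1 (61.1), Lif (55.3 ± 6.97), the alarmin Il33 (27.6 ± 4.46) and others under it such as Csf2 (9.07 ± 0.414), Il6 (7.25 ± 0.502) and Tnf (5.51 ± 0.219). Il1a and Il11 were low, at 0.426 and 0.323 CPM, and Il1b and Il10 were not named.

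Growth factor genes were led by Csf1, the survival factor of macrophages, at 737, 696 and 716 CPM. Gas6, the ligand of AXL, Vegfa, an endothelial growth factor, Pdgfc and Kitlg stood at 148 ± 10.2, 134 ± 4.92, 111 ± 12.3 and 105 ± 8.08 CPM. Fgf7, a fibroblast factor acting on epithelia, was at 87.3 ± 8.23 CPM. Of 28 named genes 23 were expressed, against 88.2% of all genes with a symbol. Ptn, a heparin-binding factor, was more than 2-fold low in replicate 1 (0.396, 2.77 and 2.43 CPM). Igf2 and Pdgfb were low (0.656 and 0.216 CPM), and Hgf and Igf1 were not named. Of the TGF-beta family, Bmp2 stood at 182 ± 8.30 CPM, Tgfb3 at 129 ± 4.76, Tgfb1 at 107 ± 4.17, Inhba (an activin chain) at 64.7 ± 1.07, Bmp4 at 64.0 ± 7.69 and Tgfb2 at 35.9 ± 5.32 CPM. Of 14 named genes of this list 12 were expressed, 1 of them Bmp1 (85.6 CPM), which is a procollagen proteinase and not a ligand of the family. Wnt5a, a noncanonical WNT, was the leading WNT gene at 58.2, 58.4 and 50.4 CPM, followed by Wnt7b (21.5) and Wnt9a (18.8). Of 11 named WNT, Notch and Hedgehog ligands 8 were expressed, a smaller share than that 88.2%.

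**Figure D5:**
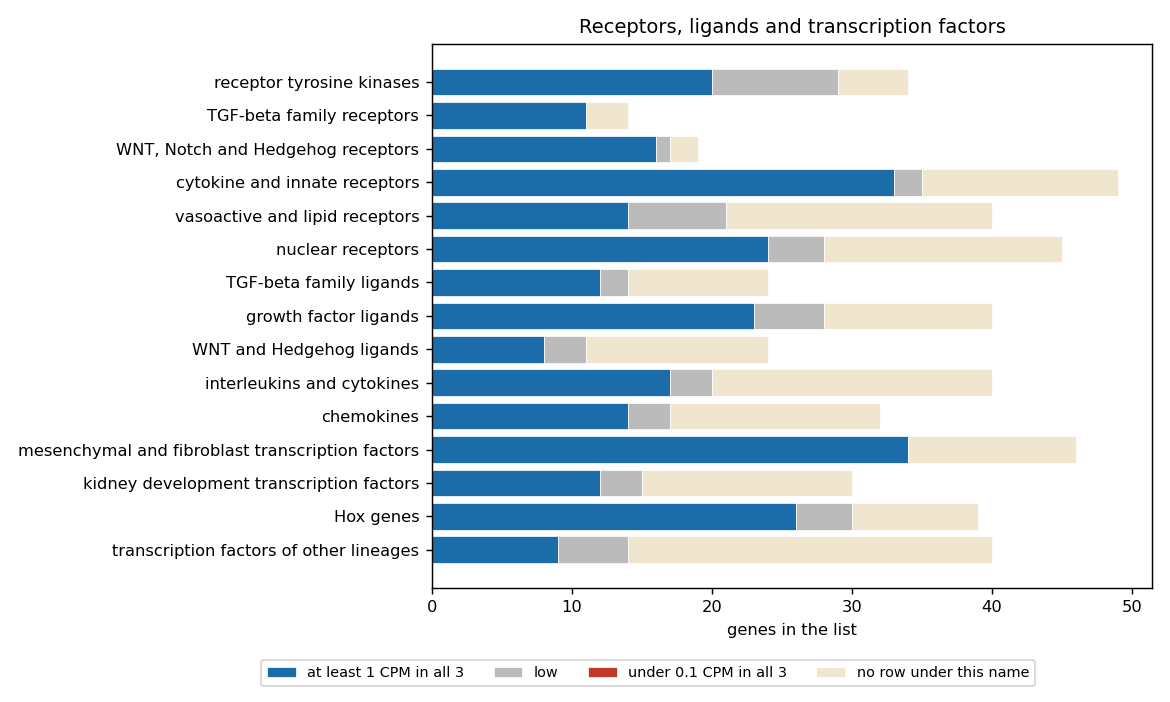
Number of genes in each list of receptors, ligands and transcription factors that reached 1 CPM in all 3 libraries, were low, or had no row under their name; the horizontal axis counts genes. All 34 named mesenchymal factors and all 11 named TGF-beta family receptors are in the first class, against 88.2% of all genes with a symbol. So are 9 of 14 named factors of other lineages, and 26 of the 40 factors in that list have no row under their name.

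Receptors were described by family. All 11 named receptors of the TGF-beta family were expressed, against 88.2% of all genes with a symbol. The signalling pair Tgfbr2 and Tgfbr1 stood at 135 ± 10.3 and 71.5 ± 0.799 CPM. The coreceptors Eng and Tgfbr3 stood at 122 ± 7.34 and 114 CPM, and the BMP receptors Bmpr2 and Bmpr1a at 99.0 and 81.7 CPM. Of 29 named receptor tyrosine kinases 20 were expressed, a smaller share than that 88.2%. Igf2r, grouped here as a growth factor receptor although it lacks a kinase, stood at 849 ± 27.5 CPM and Axl at 470 ± 13.7 CPM. Of the FGF receptors Fgfr2 stood at 70.3, 72.6 and 67.7 CPM and Fgfr1 at 0.0879, 0.326 and 0.516 CPM in replicates 1, 2 and 3. Fgfr1 was low in all 3 libraries and lowest in replicate 1. The collagen receptors Ddr1 and Ddr2 stood at 173 and 162 CPM, Met at 60.1 and Egfr at 17.7 CPM.

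The WNT coreceptor Lrp5 (532 ± 43.9 CPM), Fzd1 (216), Notch2 (208), Lrp6 (169) and the Hedgehog transducer Smo (101) led their list. In it 16 of 17 named genes were expressed, against 88.2% of all genes with a symbol. Of 35 named cytokine and innate receptors 33 were expressed, led by Il6st, the shared signal chain of the interleukin 6 family, at 539 ± 12.1 CPM, Tnfrsf12a (163), Tnfrsf1a (130), Ifnar1 and Il1r1 (105). Tlr4, the receptor for lipopolysaccharide, was at 70.6 ± 7.15 CPM. Of the vasoactive and lipid receptors 21 of 40 were named and 14 expressed, a smaller share than that 88.2%. The thrombin receptor F2r stood at 95.4 ± 5.56 CPM, F2rl1 at 55.3 and the endothelin receptor Ednra at 50.1 ± 1.99 CPM. The angiotensin receptor genes Agtr1a and Agtr1b were not named. The glucocorticoid receptor Nr3c1 (193 ± 10.3 CPM) led the nuclear receptors, followed by Nr2c2, Rxra, Nr1h2 and Rarg (107 to 102 CPM), and 24 of 28 named genes were expressed, with Vdr and Pparg low (0.574 and 0.226 CPM).

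Of 46 transcription factors of mesenchyme 34 were named, and all 34 were expressed, against 88.2% of all genes with a symbol. The YAP coactivator Yap1 stood at 259, 255 and 246 CPM, Prrx1, a homeobox factor of fibroblasts, at 235, 221 and 218 CPM, and Klf4 and Klf6 at 166 and 164 CPM. Foxf2, Zeb1, Zeb2 and Twist1 stood at 81.8, 73.1, 68.2 and 64.0 ± 6.08 CPM. Snai1 and Tcf21 were not named. Of the kidney development list 12 of 15 named factors were expressed: Tfap2a (103 ± 7.08 CPM), Tbx18 (42.6 ± 5.82), Meis1 (37.8 ± 0.219), Mecom (30.5) and Meis2 (22.8) among them. Pax8, Hnf4a and Pou3f3 were low, at 0.794, 0.647 and 0.429 CPM, and Foxd1, the factor of stromal progenitors, and Pax2, Six2 and Wt1 were not named.

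Hox genes, whose pattern records position along the body axis, were expressed in 26 of 30 named cases. That share is near that of all genes with a symbol (88.2%). Hoxa10 (66.6 ± 1.73 CPM), Hoxa9 (54.9 ± 2.78), Hoxa11 (49.7 ± 2.66), Hoxb7 (43.0) and Hoxd13 (30.5 ± 1.88) had the most counts. Factors of other lineages included some with clear counts. Cdx2, known as the intestinal homeobox factor, stood at 78.0, 75.3 and 81.2 CPM, Gata6 at 52.7, 49.0 and 46.1 CPM, Gata4 at 28.3, 23.2 and 27.9 CPM, Gata2 at 19.7 ± 2.20 CPM and Foxa2, a factor of endoderm, at 18.4, 15.5 and 18.8 CPM. These values were similar in all libraries. Sox2, Pax5, Spi1 and Sox10 were low (0.2995, 0.453, 0.284 and 0.0796 CPM), and Myod1, Pou5f1, Nkx2-5 and Neurod1 were not named.

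Signal-dependent factors were expressed in 48 of 50 rows, against 88.2% of all genes with a symbol. Nfe2l1, a factor of proteasome and oxidant responses, stood at 612 ± 8.17 CPM, Stat3 at 423 ± 10.2 CPM and Jun at 295, 233 and 299 CPM, with replicate 2 the lowest. Fos, the partner of JUN in the early response, was at 1.98, 1.47 and 1.95 CPM. Egr3, another early response factor, was more than 2-fold low in replicate 1, at 0.571, 1.47 and 1.29 CPM. Smad2 and Fosl1 were each listed under 2 identifiers, so their levels are uncertain, and Smad3 was not named.

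The cells carried transcripts of division genes after 24 hours in low serum. Of 21 rows for 20 proliferation genes 20 were expressed, against 88.2% of all genes with a symbol, so this count says little by itself. Among them were Top2a, a topoisomerase of mitosis (377, 356 and 402 CPM), and Mki67, the antigen of cycling cells (277, 299 and 319 CPM). Ccnd1, a D-type cyclin that drives entry into the cycle, stood at 1248, 1181 and 1338 CPM, and the inhibitors Cdkn1a and Cdkn1b at 185 ± 11.6 and 175 CPM. Cdkn2a and Cdkn2b were not named.

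Hdac1, the deacetylase studied by the series, stood at 211, 210 and 219 CPM in these empty vector cells. Of the related class I enzymes Hdac3 was at 112, Hdac2 at 84.5 and Hdac8 at 9.64 CPM. Hdac1l (ENSRNOG00000013695), a gene named as a copy of Hdac1, differed widely between the libraries, at 0.527, 15.5 and 9.51 CPM (mean 8.51 CPM, and 5.02 CPM without replicate 2). It was more than 2-fold lower in replicate 1 than in both others, and a link to the heart and nerve transcripts was not tested. The part of reads shared with Hdac1 in these counts was not tested, so the level is uncertain.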

How the data were processed

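Poly(A) RNA was sequenced from 3 libraries of empty vector, vehicle-treated NRK-49F cells (one group, no contrast). The raw counts per gene were deposited by the authors, and Trim Galore 0.6.7, Subread 2.0.1 (featureCounts) and DESeq2 1.44 are named in the submitters' processing notes. These also name the mouse build mm10, although the identifiers are rat Ensembl genes; the aligner, rat build and strand setting are not given in the sources used here. The deposited normalized signal equals the deposited counts divided by 1 constant per library and supplied gene names and types. CPM, means and SDs were computed from the raw counts (pandas 2.3.3), and the common dispersion and TMM factors with edgeR 4.0.16 after filterByExpr (13061 genes), tested on simulated data. Genes sharing a symbol (77 symbols) or reads with near-identical or overlapping genes are uncertain. No test between groups was made. Precision is set by 18397093 to 27119357 counts per library.

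The libraries and the 44 gene lists were chosen with earlier results of these data known. Of 1054 list genes 758 matched a name, 2 of them through RefSeq synonyms. Some genes that the rule below selects are not reported here. Named were the 25 genes with the most counts, up to 10 members per list with the highest mean, members at 0 or below detection, the 12 most variable genes, and Vim, Col1a1, Fn1, Krt8, Hdac1 and Hdac1l. Other names, including Dcn, Tagln, Col6a3 and Fgfr1, were chosen after their values were seen. No per-length level was computed, because no transcript lengths were used. Alternatives were TMM scaling, another CPM denominator, other thresholds, the deposited normalized values, DESeq2 size factors (DESeq2 1.42.0) and leaving out each library.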

Additional observations from a re-analysis of the deposited data

How the results depend on the processing

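Of 46 recalculations of the main results 40 stayed close to the value given. Close meant within 1.5 times for counts and within 1 SD for shares. For the biological coefficient of variation it meant within 1.79 percentage points. That error was computed from the values without single libraries, which were also among those judged. The share of the top 100 genes was 17.7% with the mitochondrially encoded genes left out of the total. Genes with 1 library over 2-fold from the others numbered 9828 with no minimum level, 225 at a mean of at least 1 CPM and 1 (Myh6) at 50 CPM; leaving out single libraries gave 1 to 11. The 1 was without replicate 1, a clone-named gene, AABR07068694.1, at 87.8 and 177 CPM in replicates 2 and 3. The biological coefficient of variation ranged from 5.39% to 8.16% without single libraries. Of 352 recalculated list counts 14 moved by over 1.5 times, 9 of them at 5 CPM. The expressed neuron and glia genes went from 5 to 10 without replicate 1, and the expressed endothelial genes from 3 to 5 without replicate 2. Expressed genes numbered 12290, 12112 and 12095 without replicates 1, 2 and 3, and 10289 at 5 CPM. Of 390 named genes 15 had a mean that moved by over 1.5 times when 1 library was left out. Of these, 3 had a mean of at least 1 CPM: Hdac1l (8.51 to 5.02 CPM) and Tubb3 (2.00 to 1.20 CPM) without replicate 2, and Gad1 (1.17 to 0.718 CPM) without replicate 3. No paired analysis was possible because only 1 group was described and no test between groups was made. Depth limits genes under about 1 CPM: between 0.1 and 1 CPM the median coefficient of variation was 48.8%, with 42.0% given by counting alone.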

Other observations

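Counts without a usable name are part of this profile. Of the genes at 100 CPM or more, 36 had no symbol in the deposited table, 1 of them over 1000 CPM, and 200 expressed protein-coding genes had none. Counts in genes with a symbol made up 98.3%, 98.2% and 98.3% of replicates 1, 2 and 3.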
